A study of Mus musculus with 96 samples.

Results

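Immediate early genes are described here by 10 members chosen by name, Fos, Fosb, Junb, Egr1, Nr4a1, Npas4, Arc, Ier2, Btg2 and Dusp1, out of 39179 genes in the deposited tables. Each had 1 row in the table of estimated counts and 1 in the table of FPKM (fragments per kilobase of gene, scaled to library depth), and all 10 passed the filter on low counts in every fit. The series is built on the CAG repeat of Htt, the gene of Huntington disease, and it holds 96 cerebellum mRNA libraries of C57BL/6 mice aged 6 or 10 months. The knock-in mice were heterozygous for an Htt allele of nominally 20, 50, 92 or 140 CAG (Q20, Q50, Q92, Q140), so each also kept a wild-type allele, and Q92 and Q140 mice were kept with their own genotype, Q20 and Q50 mice also with wild types. The controls were wild-type mice of 2 kinds, from Q20 cages or from Q50 cages. No wild types from Q92 or Q140 cages were analysed here, so for those alleles cage and repeat cannot be told apart. Each age held 6 groups of 8 libraries, 4 from females and 4 from males. Whether every library is a separate animal cannot be read from the labels, so the p-values measure the spread between libraries, which may in part be technical.

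Immediate early genes are transcribed within minutes of a stimulus such as synaptic activity or a growth factor, without the need for new protein, and their mRNAs are short-lived. Calcium and MAP kinase signals reach their promoters through transcription factors that are already bound or present, among them CREB at cAMP response elements and SRF at CArG boxes. In brain, including the granule and Purkinje neurons of the cerebellum, Fos is widely used to mark recently active cells. Fos, Fosb and Junb are subunits of the dimeric AP-1 factor. Egr1 is a zinc finger factor, Nr4a1 an orphan nuclear receptor and Npas4 a factor that is selective for neuronal activity. Arc acts at synapses in the removal of glutamate receptors. Ier2 is a nuclear protein of the early response, Btg2 an antiproliferative protein that recruits the mRNA deadenylase, and Dusp1 a phosphatase that switches MAP kinases off.

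The promoters of the 5 members that varied most between libraries are shown because those 5 moved together, as the correlations further on describe. The windows are RefSeq sequences on GRCm38.p6 of the coding strand, from 250 bases before to 50 bases after the annotated start: chr12:85473640-85473939 on the plus strand for Fos, chr7:19309996-19310295 on the minus strand for Fosb, chr19:4989922-4990221 on the minus strand for Npas4, chr15:101266596-101266895 on the plus strand for Nr4a1 and chr17:26508423-26508722 on the minus strand for Dusp1. Capitals mark the core TGACG of the cAMP response element on either strand (CGTCA on the other), the full element TGACGTCA that contains it, a TATAAA box and the binding site of EGR factors.
Fos: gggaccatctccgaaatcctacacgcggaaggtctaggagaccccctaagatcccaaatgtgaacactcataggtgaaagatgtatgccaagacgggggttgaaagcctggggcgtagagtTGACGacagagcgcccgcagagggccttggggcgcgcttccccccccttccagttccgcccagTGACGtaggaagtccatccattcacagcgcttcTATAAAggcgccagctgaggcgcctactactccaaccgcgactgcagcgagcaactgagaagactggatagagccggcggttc
Fosb: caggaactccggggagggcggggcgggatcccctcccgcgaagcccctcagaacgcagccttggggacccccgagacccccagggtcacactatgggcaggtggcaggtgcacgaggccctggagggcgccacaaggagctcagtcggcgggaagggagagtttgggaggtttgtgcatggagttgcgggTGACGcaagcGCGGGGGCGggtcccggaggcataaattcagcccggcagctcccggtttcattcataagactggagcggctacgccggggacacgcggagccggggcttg
Npas4: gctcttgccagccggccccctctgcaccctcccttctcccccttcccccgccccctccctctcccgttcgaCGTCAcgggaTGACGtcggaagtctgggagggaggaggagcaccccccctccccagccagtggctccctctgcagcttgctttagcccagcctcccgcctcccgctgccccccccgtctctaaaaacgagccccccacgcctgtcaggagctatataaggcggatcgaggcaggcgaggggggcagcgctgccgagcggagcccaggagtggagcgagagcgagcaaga
Nr4a1: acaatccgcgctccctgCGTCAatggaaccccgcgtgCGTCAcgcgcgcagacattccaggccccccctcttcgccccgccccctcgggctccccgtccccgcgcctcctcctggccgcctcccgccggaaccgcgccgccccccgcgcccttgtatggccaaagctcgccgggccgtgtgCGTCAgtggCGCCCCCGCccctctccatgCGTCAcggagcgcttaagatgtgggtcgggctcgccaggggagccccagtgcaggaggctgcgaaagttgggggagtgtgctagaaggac
Dusp1: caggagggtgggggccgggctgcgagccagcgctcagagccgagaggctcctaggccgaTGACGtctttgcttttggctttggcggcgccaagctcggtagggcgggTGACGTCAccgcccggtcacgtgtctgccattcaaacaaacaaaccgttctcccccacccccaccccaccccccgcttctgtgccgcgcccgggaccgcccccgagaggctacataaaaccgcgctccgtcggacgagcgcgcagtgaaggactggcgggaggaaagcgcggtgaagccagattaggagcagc

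RefSeq windows were used here for 7 of the 10 members, the 5 above, Btg2 and Junb. The core TGACG, searched on both strands, stood in 7 of these 7 windows and in 20.91% of 32544 distinct promoter windows of the same length. The full element was found in 2 members, Btg2 and Dusp1, against 1.8% of all windows, and the EGR site in 3, Btg2, Fosb and Nr4a1, against 5.6%. TATAAA stood in the windows of Fos and Junb, 2 of 7, against 13.57% of all windows. The AP-1 site TGANTCA and the CArG box were found in 0 of the 7 windows, against 7.79% and 1.64% of all windows. Sites more than 250 bases before the start, and the promoters of Egr1, Arc and Ier2, were not searched, so members may hold such sites outside these windows. Base composition was not matched in these shares, and a match of letters is a description of the sequence and does not show binding.

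Library totals lay between 29957797 and 39477325 estimated counts, with a median of 34251076, and the lowest count of any member in any library was 8. Levels in CPM are TMM-scaled counts relative to library total, and FPKM serves where genes are compared with each other. Defining markers of cerebellum were present in every library: the granule neuron gene Gabra6 had a median of 291.7 FPKM with a lowest library at 137.3, and the Purkinje cell gene Pcp2 a median of 425.0 with a lowest library at 257.8. The choroid plexus gene Ttr ran from 1.63 to 3188 FPKM, so the amount of that neighbouring tissue differed widely between libraries. The library of Q92 female 2 at 10 months stood apart, with 12.7% of counts from mitochondrial genes, against 6.30% in the lowest library, and the lowest mean of the granule neuron list, 8.01 on the log2 CPM scale. In bulk tissue such as this, fewer cells of a type and less RNA per cell cannot be told apart.

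Per length, Dusp1 and Fos were the most abundant members and Fosb the least. Median FPKM over the 48 libraries at 10 months and the 48 at 6 months was 26.8 and 31.4 for Dusp1, 24.6 and 31.0 for Fos, and 0.449 and 0.770 for Fosb. The other members fell between these, with medians at 10 and 6 months of 17.2 and 21.5 FPKM for Nr4a1, 14.1 and 16.6 for Egr1, 7.34 and 8.75 for Btg2, and 7.64 and 7.66 for Arc. Medians were 6.75 and 7.78 FPKM for Ier2, 3.02 and 3.82 for Junb, and 2.44 and 2.84 for Npas4 at these ages. The spread between libraries was wide beside these differences in median, as the plot of levels by group shows.

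On GRCm38 with the GENCODE M21 annotation, Fos (ENSMUSG00000021250) spans chromosome 12 from 85473890 to 85477273 and Fosb (ENSMUSG00000003545) chromosome 7 from 19302696 to 19310051. Nr4a1 (ENSMUSG00000023034) spans chromosome 15 from 101254269 to 101274795, so the RefSeq start shown above lies inside the GENCODE gene. Dusp1 (ENSMUSG00000024190) spans chromosome 17 from 26505590 to 26562128 in this annotation, and its RefSeq start likewise lies inside. Npas4 (ENSMUSG00000045903) spans chromosome 19 from 4984355 to 4990316, Arc (ENSMUSG00000022602) chromosome 15 from 74669083 to 74672570, and Btg2 (ENSMUSG00000020423) chromosome 1 from 134075170 to 134079120. Junb (ENSMUSG00000052837) and Ier2 (ENSMUSG00000053560) lie on chromosome 8, from 84974484 to 84978718 and from 84661331 to 84662852. The sources used here do not state whether the authors' counting used strand. Reads of Junb and of the overlapping Prdx2, and of Dusp1 and the overlapping Ergic1, may therefore not be told apart. The transcripts of each member shared 0% of their 50-base words with those of other annotated genes, read in the sense direction. The reverse complement was not searched, so this does not cover the overlaps with Prdx2 and Ergic1 on the opposite strand.

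**Figure D1:**
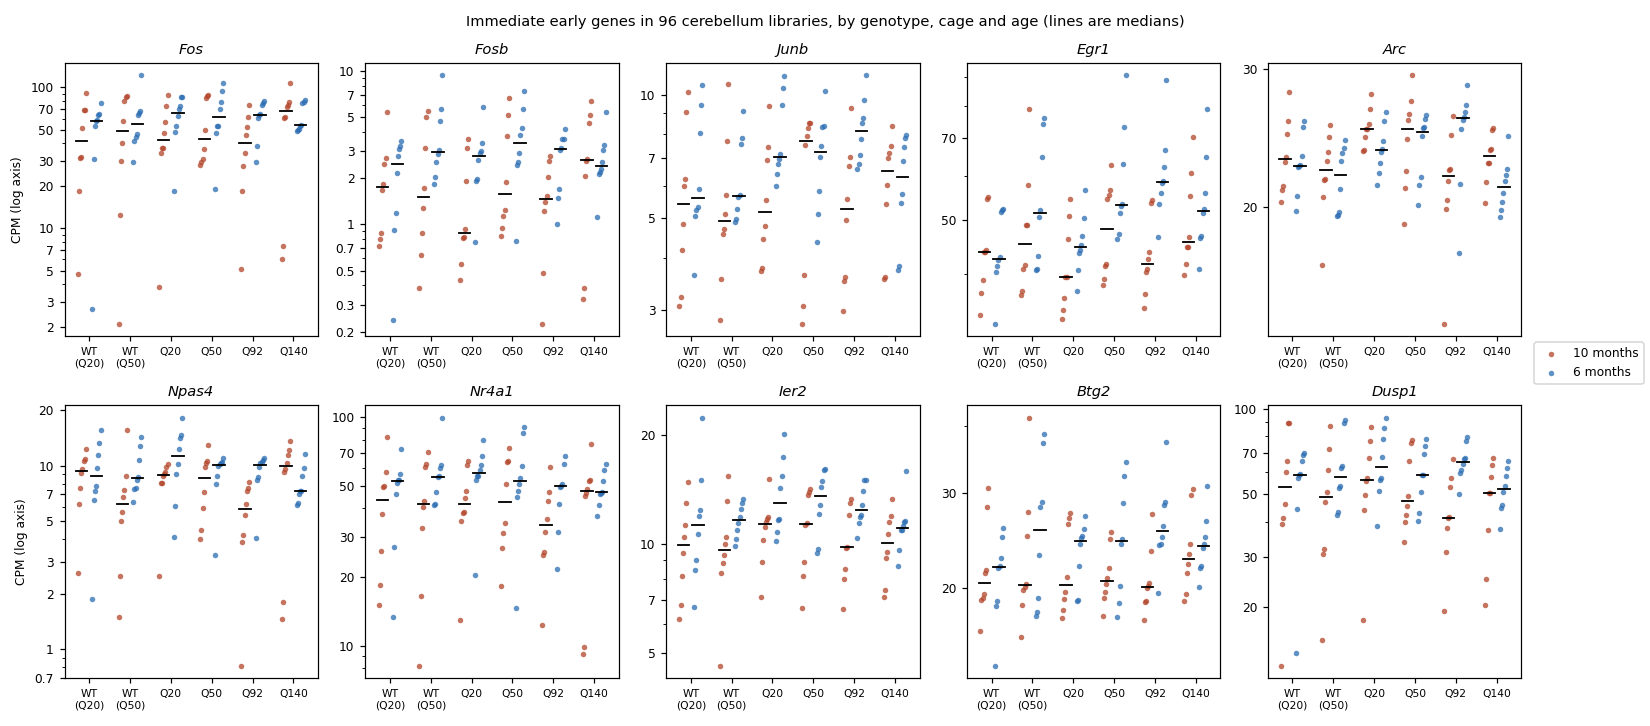
Level of each of the 10 members in every library, as CPM on a log axis, by group from wild types to Q140, with 10 months (red) left of 6 months (blue) in each group of 8 libraries; short lines are medians. Single libraries of Fos, Fosb, Nr4a1, Npas4 and Dusp1 fall far below the rest of their groups, whereas Arc stays within 14.2 to 29.4 CPM at 10 months and 17.4 to 28.6 CPM at 6 months.

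Fos varied more between libraries of the same genotype, sex and age than all but a few genes. Within groups of 4, the SD of its log2 CPM was 1.23, which was larger than that of 98.9% of 17384 genes, for which the median SD was 0.18. The SD was 1.07 for Fosb, 0.79 for Nr4a1, 0.79 for Npas4 and 0.60 for Dusp1, larger than 98.4%, 97.0%, 96.9% and 94.1% of genes. It was 0.48 for Junb, 0.37 for Ier2, 0.30 for Btg2 and 0.28 for Egr1, larger than 71.4% to 88.3% of genes. Arc, though a classical activity gene, had an SD of 0.16, larger than 42.6% of genes.

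Across the 48 libraries at 10 months, Fos ran from 2.10 to 108.0 CPM, a 51.6-fold range, and across the 48 at 6 months from 2.69 to 121.5 CPM. The range at 10 months was 29.9-fold for Fosb, 19.1-fold for Npas4, 10.1-fold for Nr4a1 and 7.18-fold for Dusp1. It was between 2.08-fold, for Arc, and 3.82-fold, for Junb, in the other 5 members. The 6 genotype and cage groups accounted for 2.6% of the variance of log2 Fos at 10 months and 7.1% at 6 months, and groups without any difference would account for 10.6% on average. For Arc the groups accounted for 20.1% at 10 months and 20.9% at 6 months, and at 6 months for 28.3% in Egr1, 18.5% in Junb and 13.4% in Fosb. The tests between groups are given further on.

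The lowest Fos values were found in single libraries of many groups. At 10 months, 7 libraries from 5 of the 6 groups had under 16 CPM of Fos, and at 6 months 1 library had. In ascending order, these were female 4 of the wild types from Q50 cages at 10 months with 2.10 CPM, male 3 of the wild types from Q20 cages at 6 months with 2.69, and Q20 female 2 at 10 months with 3.81. There followed female 2 of the wild types from Q20 cages with 4.76 CPM, Q92 female 3 with 5.11, Q140 male 4 with 6.08, Q140 female 3 with 7.49 and male 4 of the wild types from Q50 cages with 12.5, all at 10 months. Knock-in and wild-type mice and both sexes were among them, and Q50 alone of the 6 groups had no such library at 10 months. Their totals, 30396867 to 37567066, and mitochondrial shares, 6.53% to 7.58%, lay inside the range of the other libraries.

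The libraries low in Fos were low in most of the other members. Of the 7 lowest in Fos at 10 months, 7 were also the 7 lowest in Npas4, 7 in Nr4a1 and 7 in Dusp1 among the 48. For Nr4a1 they held 8.18 to 16.5 CPM, against a median of 43.1 over the age, for Dusp1 12.4 to 30.8 against 50.2, and for Npas4 0.814 to 2.62 against 8.06. The overlap was 5 of 7 for Fosb, 5 for Ier2, 4 for Btg2, 3 for Junb and 3 for Egr1. For Arc it was 0 of 7, and these libraries held 23.5 to 27.9 CPM of Arc against a median of 23.5.

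**Figure D2:**
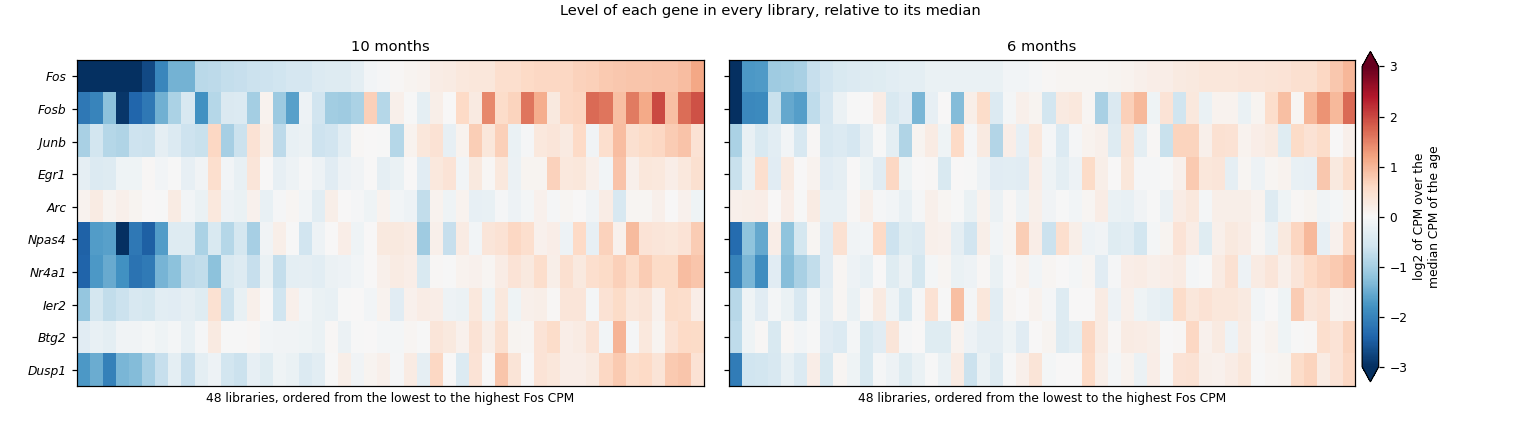
Heat map of the 10 members in the 48 libraries of each age, ordered by Fos CPM, with color for each member's log2 CPM minus its median over the age, clipped at 3 units either way. Nr4a1, Fosb, Npas4 and Dusp1 fade with Fos toward the low end, and Arc keeps a near even color.

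Taken pair by pair inside the groups of 4, members other than Arc mostly moved together. Each library's log2 CPM was set against the mean of its group of 4, and 45 pairs were tested at each of 2 ages by shuffling within groups, 90 tests adjusted together. By Pearson r, 38 of 45 pairs passed an adjusted p of 0.05 at 10 months, 36 of them with r above 0, and 32 passed at 6 months, 32 of them above 0. The 7 pairs that did not pass by r at 10 months each included Arc. Some pairs passed by r and not by Spearman rho. These were Arc with Nr4a1 at 10 months, and at 6 months Junb with Npas4, Egr1 with Ier2, Fosb with Btg2 and Ier2 with Btg2.

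Close pairs included Fos with Nr4a1, Dusp1 and Fosb, and Fosb with Nr4a1. Fos and Nr4a1 had Pearson r of 0.96 at 10 months and 0.90 at 6 months (Spearman rho 0.96 and 0.93), and Fos and Dusp1 had 0.95 and 0.92 (rho 0.93 and 0.89). Fosb and Nr4a1 had r of 0.95 and 0.91 (rho 0.89 and 0.88), and Fos and Fosb 0.91 and 0.83 (rho 0.86 and 0.82). The permutation p of each of these was 1e-05, the smallest that 100000 shuffles can give, and the adjusted p 2.9e-05 for r and 3.3e-05 for rho. Leaving out the 2 libraries farthest from the median of Fos, or of Fosb for its pair with Nr4a1, left r at 0.88 to 0.95 for these pairs except Fos with Fosb at 6 months, where it was 0.80. In the libraries with at least 16 CPM of Fos, 41 at 10 months and 47 at 6 months, a limit chosen after seeing the data, Fos and Nr4a1 still had r of 0.93 and 0.92.

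Pairs of other members were as close. Junb and Ier2 had r of 0.94 at 10 months and 0.87 at 6 months (rho 0.91 and 0.87), and Egr1 and Btg2 had 0.85 and 0.88 (rho 0.79 and 0.87), each with an adjusted permutation p of 2.9e-05 for r and 3.3e-05 for rho. Fos with Junb was looser, at 0.78 and 0.60, and Fos with Egr1 at 0.60 and 0.44. Egr1 and Npas4 had r of 0.44 at 10 months (adjusted permutation p = 0.0262) and 0.00 at 6 months (adjusted permutation p = 0.98). At 10 months r was 0.07 for this pair in the libraries with at least 16 CPM of Fos, so at that age the relation rested on the low libraries. Fosb with Egr1 likewise had 0.40 over all 48 libraries at 10 months and 0.06 with at least 16 CPM of Fos.

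Arc ran against Fos, if at all. Fos and Arc had r of -0.44 at 10 months (rho -0.35, adjusted permutation p = 0.0335 for r and 0.0457 for rho) and -0.24 at 6 months (rho -0.15, adjusted permutation p = 0.166 and 0.377). Without the 2 libraries farthest from the median of Fos it was -0.37 at 10 months, and in the libraries with at least 16 CPM of Fos it was -0.22. Arc and Nr4a1 had r of -0.41 at 10 months (adjusted permutation p = 0.026) and -0.30 at 6 months (adjusted permutation p = 0.0872). Their rho at 10 months was -0.33 and did not pass (adjusted permutation p = 0.0645). In the libraries with at least 16 CPM of Fos, their r at that age was -0.19.

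**Figure D3:**
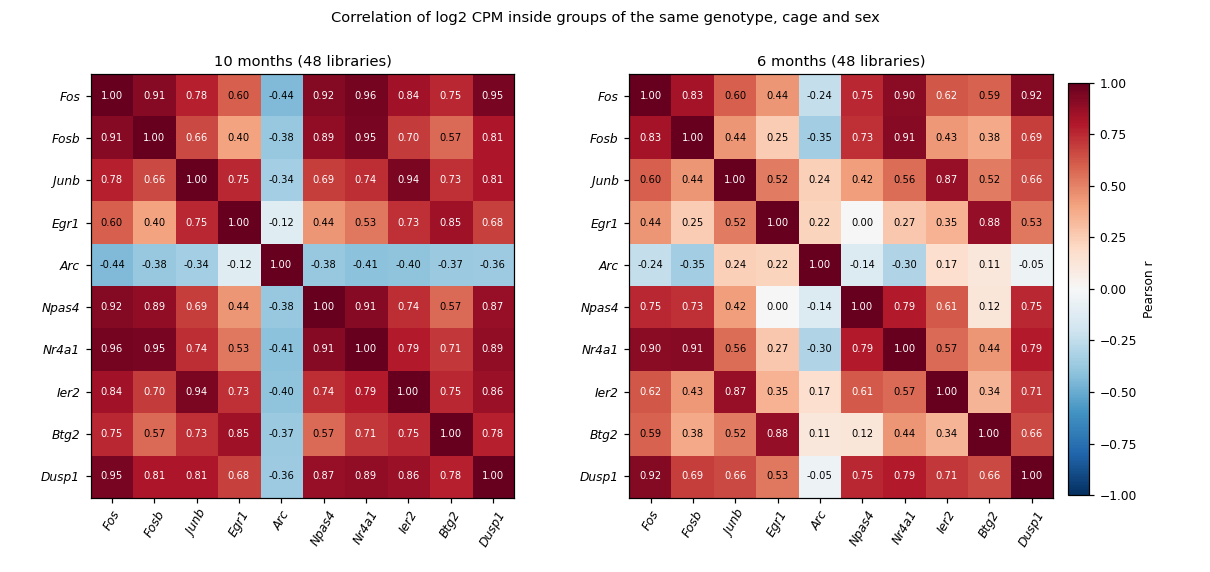
Pearson r between each pair of members at 10 months and at 6 months, over 48 libraries per age, from log2 CPM minus the mean of the library's group of 4. Fos, Fosb, Nr4a1, Npas4 and Dusp1 form a block of high r, and Junb pairs with Ier2 and Egr1 with Btg2. The values below 0 lie in the row of Arc, where r reached 0.24 with Junb at 6 months.

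Over all 96 libraries, the genes outside the list with the pattern most like the mean of the 10 members were Irf2bp2 (r = 0.85), Egr4 (0.81), Nr4a2 (0.81), Ccn1 (0.81), Apold1 (0.80), Sik1 (0.78), Ppp1r15a (0.70), Phf13 (0.70), Srf (0.69) and Tob1 (0.69). Of these 10, 5 belong to a list of other rapid response genes and Srf to a list of upstream factors. Nr4a2, the paralog of Nr4a1, was the gene most like Fos (0.92), Fosb (0.94) and Nr4a1 (0.96), and it ran from 3.42 to 94.1 CPM with a median of 41.5. Irf2bp2, which encodes a transcriptional corepressor, was the gene most like Npas4 (0.84), Ier2 (0.80) and Dusp1 (0.85), and it ran only from 46.0 to 91.6 CPM. Egr4 was most like Junb (0.78), Tob1 most like Egr1 (0.78) and Ccn1 most like Btg2 (0.81). Arc had the loosest best match, Fntb, at 0.69. These r values are descriptions of the libraries, with no test.

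The members were also set against 10 measures of the libraries, 200 tests adjusted together over members, measures and ages. Library total and mitochondrial share passed with no member at either age. At 10 months, the mean of the clock gene list went with Fosb (r = 0.65, adjusted permutation p = 0.00233), Npas4 (0.62), Nr4a1 (0.60) and Fos (0.48). The mean of genes induced by glucocorticoids went with Fosb (r = 0.63, adjusted permutation p = 0.001), Npas4 (0.63), Nr4a1 (0.55) and Fos (0.49), and that of heat shock genes with Fosb (0.54), Npas4 (0.52), Nr4a1 (0.50) and Fos (0.46). These lists are not fully separate. Per1 is in both the clock and the glucocorticoid-induced list, and Per1 and Errfi1 of the latter are also in the list of other rapid response genes. Dusp1 passed with clock genes (0.42, adjusted permutation p = 0.0419) and glucocorticoid-induced genes (0.43, adjusted permutation p = 0.038). Arc passed with heat shock genes in the other direction (-0.49, adjusted permutation p = 0.0462). For Fos these fell to 0.27 with clock genes, 0.23 with glucocorticoid-induced genes and 0.26 with heat shock genes where only libraries with at least 16 CPM of Fos were taken. For Fosb they were 0.56, 0.49 and 0.37.

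At 6 months 11 of 100 tests passed, 3 with r above 0 and 8 with r below 0. Among those above 0, Npas4 again went with the glucocorticoid-induced list (r = 0.40, adjusted permutation p = 0.0459) and with the heat shock list (0.53, adjusted permutation p = 0.00673). The glucocorticoid-induced list had r of -0.69 with Egr1 (adjusted permutation p = 0.001), -0.63 with Btg2 and -0.51 with Arc, and the heat shock list -0.56 with Egr1 and -0.52 with Btg2. The clock list had -0.54 with Arc and -0.49 with Egr1 (adjusted permutation p = 0.0246), and the granule neuron list -0.53 with Npas4. Whether these r values differ between the ages was not tested. The sources used here do not give the time of day of sampling or the handling of the mice, so their part in the spread was not tested.

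Repeat length went with no called change in any member. Repeat length was examined by setting Q92 and Q140 against Q20, which carries a knock-in allele of its own with a short repeat, and against wild types. The edgeR test called 0 of 10 members in each of these at either age, at a Benjamini-Hochberg adjusted p under 0.05 over all tested genes. The background was 1.99% of genes called in Q140 against Q20 at 10 months, 0.164% at 6 months, 0.2% in Q92 against Q20 at 10 months and 0.0117% at 6 months. Before adjustment, 2 members in Q140 against Q20 and 1 in Q92 against Q20 had p under 0.05, the same numbers at each age. DESeq2 on the counts and limma on the FPKM called 0 members as well.

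Fosb had the largest difference in Q140 at 10 months, and it did not pass. The lowest, median and highest of 8 libraries were 0.325, 2.63 and 6.44 CPM in Q140, against 0.432, 0.883 and 3.63 CPM in Q20. The groups overlapped over most of their range, with 6 of 8 Q140 libraries above the mean log2 CPM of Q20. Counts of libraries above or below another group are set against that group's mean log2 CPM here and in what follows. This gave a log2 fold change of 1.13 ± 0.52 (SE), a 2.19-fold higher level with an adjusted p of 0.304 in edgeR. On log2(FPKM + 0.1) limma gave 0.70 with an adjusted p of 0.549. Against all 16 wild types the log2 fold change in edgeR was 0.56 ± 0.43 (adjusted p = 1).

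Egr1 was the other member with p under 0.05 in Q140 at 10 months. Its lowest, median and highest values were 39.9, 45.7 and 70.5 CPM in Q140, against 33.2, 39.5 and 54.5 CPM in Q20, and 7 of 8 Q140 libraries exceeded the mean log2 CPM of Q20. The log2 fold change was 0.27 ± 0.13 (SE, adjusted p = 0.325 in edgeR). In Q92 at 6 months, Egr1 held 46.5, 58.5 and 88.9 CPM, against 37.2, 44.6 and 56.7 CPM in Q20. All 8 Q92 libraries lay above the mean log2 CPM of Q20, but the ranges overlapped between 46.5 and 56.7 CPM. Egr1 thus differed by 0.43 ± 0.13 on the log2 scale (SE, adjusted p = 0.165 in edgeR), and by 0.30 against the 16 wild types (adjusted p = 0.741).

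Among the members that were lower, Arc in Q92 at 10 months had 14.2, 21.9 and 26.1 CPM, against 23.5, 25.15 and 27.9 CPM in Q20. For Arc the log2 fold change was -0.24 ± 0.09 (SE, adjusted p = 0.164 in edgeR), with 7 of 8 Q92 libraries below the mean log2 CPM of Q20. It was -0.08 against the 16 wild types. The lowest of these Arc values belongs to Q92 female 2, the library that stood apart. Without Q92 female 2, which is the one library at 10 months far from the others on the first principal component, the log2 fold change was -0.17 (adjusted p = 0.348 in edgeR).

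At 6 months Junb had 3.75, 6.31 and 7.998 CPM in Q140, against 5.98, 7.07 and 11.1 CPM in Q20. The groups overlapped, and 6 of 8 Q140 libraries lay below the mean log2 CPM of Q20. Junb differed by -0.39 ± 0.19 on the log2 scale (SE, adjusted p = 0.212 in edgeR). Arc at 6 months differed by -0.15 ± 0.07 (SE, adjusted p = 0.211 in edgeR) between Q140 and Q20, with 7 of 8 libraries lower. For Fos, the member most used as a marker, the difference between Q140 and Q20 was 0.34 at 10 months with a 95% interval of -0.69 to 1.36. At 6 months it was -0.01 with an interval of -0.67 to 0.65. The intervals hold the differences of Fos compatible with these libraries, without adjustment over genes, and are not limits of detection. At 6 months the mean of the choroid plexus list was 0.26 in Q140 and 2.77 in Q20 on the log2 CPM scale, with 0 of 12 called. Of 12 oligodendrocyte markers 3 were called lower in Q140 at 6 months, Mal at -0.46 ± 0.09, Aspa at -0.46 ± 0.10 and Cldn11 at -0.49 ± 0.11 (SE), and the list mean was 6.89 in Q140, between 6.67 and 7.19, and 7.22 in Q20, between 6.82 and 7.84. The part of these markers in the members' differences was not tested.

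Read over the 10 members, the differences of Q140 against Q20 had no common direction at 10 months, 6 above 0 and 4 below, with a median log2 fold change of 0.10 against -0.003 over all genes. At 6 months 2 were above 0 and 8 below, with a median of -0.18 against -0.01 over all genes. For Q92 against Q20, 2 were above 0 and 8 below at 10 months, with a median of -0.16 against 0.004 over all genes, and 4 and 6 at 6 months, with a median of -0.02. The difference between the ages in the effect of Q140 against Q20 was called for 0 members, with a background of 0%. So was the difference between the sexes in this effect at 10 months, with a background of 0.00575%, and at 6 months, with 0%. The lowest adjusted p of a member in these edgeR tests was 0.791. Npas4 at 6 months was the only member with p under 0.05 in them, with a female minus male difference of -1.08 ± 0.51 (SE, adjusted p = 1 in edgeR).

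**Figure D4:**
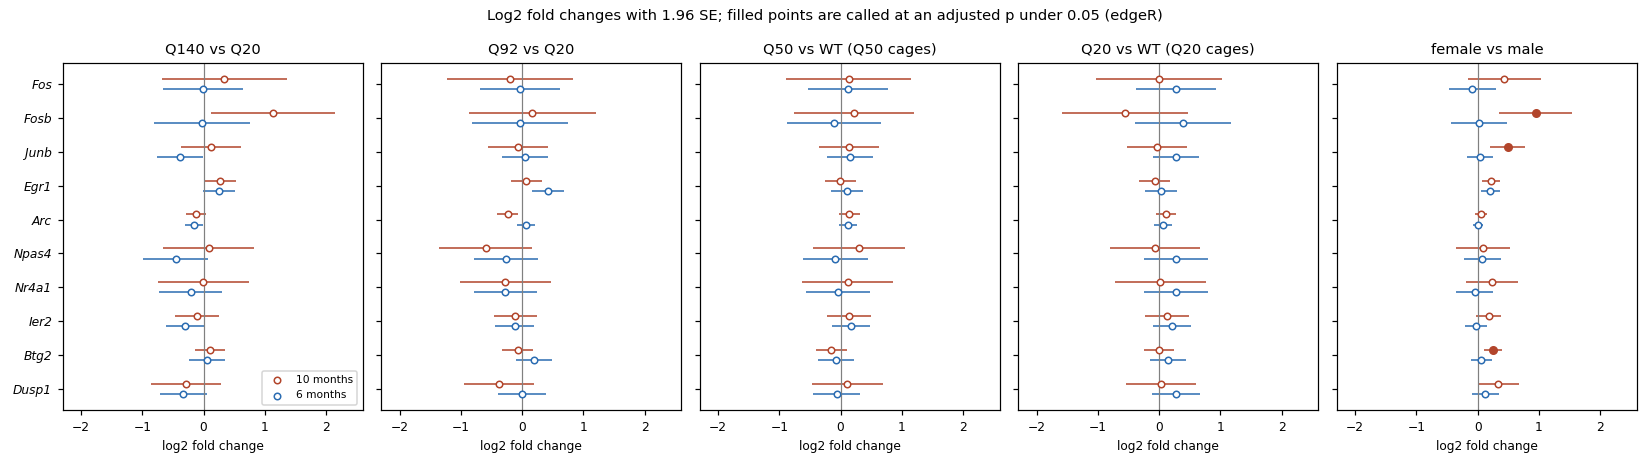
Log2 fold change of each member with its 95% interval in 5 comparisons, from edgeR; filled points are called at an adjusted p under 0.05. Filled points appear only for Junb, Btg2 and Fosb in females against males at 10 months. The comparison of 10 months with 6 months is not drawn.

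Along the allelic series, the slope of log2 level per 100 CAG over 32 knock-in libraries was called for 0 of 10 members, with a background of 1.16% of genes at 10 months and 0.406% at 6 months. The steepest at 10 months was Fosb, at 0.68 ± 0.41 (SE, adjusted p = 0.57 in edgeR). At 6 months the only member with p under 0.05 was Ier2, at -0.24 ± 0.11 per 100 CAG (SE, adjusted p = 0.154). Ier2 had median CPM of 12.99 in Q20 libraries, 13.6 in those of Q50, 12.4 for Q92 and 11.1 for Q140 at 6 months, and the groups overlapped. Without Q140 female 4, the highest of its group at 15.9 CPM, the slope of Ier2 was -0.31 with an adjusted p of 0.0344 in edgeR, and leaving out any other library gave no member a call in the slope at either age.

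With the 6 groups of an age ordered by mean CPM, neighbours in the order lay within the larger of their SDs for each member. Steps between sorted means are small by construction, so this says nothing on whether groups differ. The highest group mean was 1.10 to 1.98 times the lowest. The ends of the order lay 0.313 to 1.33 of the larger SD apart, farthest for Egr1 at 6 months, with Q92 highest at 61.3 CPM and wild types from Q20 cages lowest at 44.4 CPM. Fosb had the largest ratios, with 3.03 ± 2.21 CPM in Q140 and 1.54 ± 1.24 CPM in Q20 at 10 months (SD, n = 8 each), and at 6 months with wild types from Q50 cages highest at 4.03 ± 2.54 CPM and wild types from Q20 cages lowest at 2.14 ± 1.22 CPM.

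Against wild types of the same cages, 0 of 10 members were called in Q20 or Q50 at either age by edgeR, DESeq2 or limma, and 0 had p under 0.05 in edgeR. The background was 0.0117% in Q20 at each age and in Q50 at 6 months, and 0.0529% in Q50 at 10 months. In Q20 at 6 months 10 of 10 members were above 0, with a median log2 fold change of 0.27 against -0.003 over all genes, and the adjusted p-values in edgeR ran from 0.822 to 0.968. Fos, for example, had 18.5, 66.2 and 85.5 CPM in Q20, against 2.69, 58.2 and 77.4 CPM in wild types from Q20 cages, so its lowest wild-type value lay far under the rest. At 10 months 5 members were above 0 and 5 below in Q20, with a median of 0.001.

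Against all 16 wild types, Q140 and Q92 had 0 called members at either age in edgeR. The background was 0.452% for Q140 and 0.0529% for Q92 at 10 months, and 0.234% and 0.035% at 6 months. For Q92 at 6 months 3 members had p under 0.05, and 0 in the other 3 of these comparisons. Wild types from Q50 cages against those from Q20 cages gave 0 called members, with a background of 0.2% at 10 months and 0.0935% at 6 months. At 6 months 3 members had p under 0.05, Fosb at 0.92 ± 0.40 (adjusted p = 0.58 in edgeR), Btg2 at 0.32 ± 0.15 and Egr1 at 0.31 ± 0.13 (SE). Fosb had 1.84, 2.97 and 9.39 CPM in wild types from Q50 cages, against 0.237, 2.48 and 3.49 CPM in those from Q20 cages. At 10 months the difference in Fosb between the wild types was 0.02 ± 0.52 (SE).

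Females had higher levels of Junb, Btg2 and Fosb than males at 10 months. These 3 of 10 members were called, against a background of 5.87% of genes called in either direction and 3.46% called higher in females. All 10 members were above 0, with a median log2 fold change of 0.24 against 0.003 over all genes, and 4 had p under 0.05 in edgeR. The calls lay close to the threshold: Fosb lost its call without any 1 of 35 of the 48 libraries, Junb without any 1 of 13 and Btg2 without any 1 of 10.

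Junb had 2.83, 7.34 and 10.6 CPM as the lowest, median and highest of 24 female libraries, against 2.77, 4.74 and 8.39 CPM in 24 males. The sexes overlapped, and 18 of 24 females lay above the male mean log2 CPM. The log2 fold change was 0.49 ± 0.15 (SE), 1.40-fold higher in females (adjusted p = 0.0374 in edgeR). Btg2 had 16.2, 23.9 and 41.4 CPM in females, against 17.4, 20.0 and 24.9 CPM in males. The male values were held in a narrow band, and 15 of 24 females exceeded the male mean log2 CPM. Its log2 fold change was 0.25 ± 0.07 (SE), 1.19-fold higher (adjusted p = 0.0376 in edgeR).

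Fosb had 0.225, 2.64 and 6.71 CPM in females, against 0.325, 1.24 and 5.18 CPM in males at 10 months. Low values occurred in both sexes, and 17 of 24 females were above the male mean log2 CPM. In log2 terms the difference was 0.95 ± 0.30 (SE), 1.93-fold higher (adjusted p = 0.04999 in edgeR). The female mean exceeded the male mean in 6 of 6 genotype and cage groups for Fosb, Junb, Btg2 and Dusp1. Egr1, at 0.22 ± 0.07 (SE, adjusted p = 0.0699), and Dusp1, at 0.34 ± 0.17 (SE, adjusted p = 0.199), were not called. Fos differed by 0.44 ± 0.30 (SE, adjusted p = 0.361 in edgeR), with medians of 65.5 CPM in females and 36.7 CPM in males. Arc differed by 0.05 ± 0.05 (SE).

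These 3 calls depended on single libraries. Leaving out 1 of the 48 libraries at a time gave 0 to 4 called members in edgeR, and 16 of the 48 omissions moved the count by more than 1.5 times. The count was 0 without any 1 of Q92 female 4, Q92 male 2, females 1 and 4 of the wild types from Q20 cages, and female 2 and male 2 of the wild types from Q50 cages. It was 1 without any 1 of Q20 females 1 and 4, Q20 male 2, Q50 females 2 and 3, Q50 males 3 and 4, Q92 male 4, male 3 of the wild types from Q20 cages and male 1 of the wild types from Q50 cages. Over these omissions the log2 fold change ran from 0.45 to 0.53 for Junb, 0.20 to 0.27 for Btg2 and 0.86 to 1.05 for Fosb. The adjusted p ran from 0.0194 to 0.0639, from 0.0185 to 0.0627 and from 0.0286 to 0.0801. With the library name's L number as a factor, 0 members were called, and with limma on FPKM 0 at either pseudocount.

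At 6 months 0 of 10 members were called between the sexes, with a background of 0.876%. Egr1 alone had p under 0.05, with 40.4, 52.6 and 90.7 CPM in females, against 32.6, 47.02 and 74.1 CPM in males, and a log2 fold change of 0.21 ± 0.08 (SE, adjusted p = 0.279 in edgeR). Junb differed by 0.04 ± 0.11 and Fosb by 0.02 ± 0.23 (SE). The sex effect at 10 months minus that at 6 months was 0.45 ± 0.19 for Junb (SE, adjusted p = 0.314 in edgeR) and 0.93 ± 0.39 for Fosb (SE, adjusted p = 0.318). It was called for 0 of 10 members, 2 had p under 0.05, and the background was 0.0458%. The sex differences are therefore not shown to differ between the ages.

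**Figure D5:**
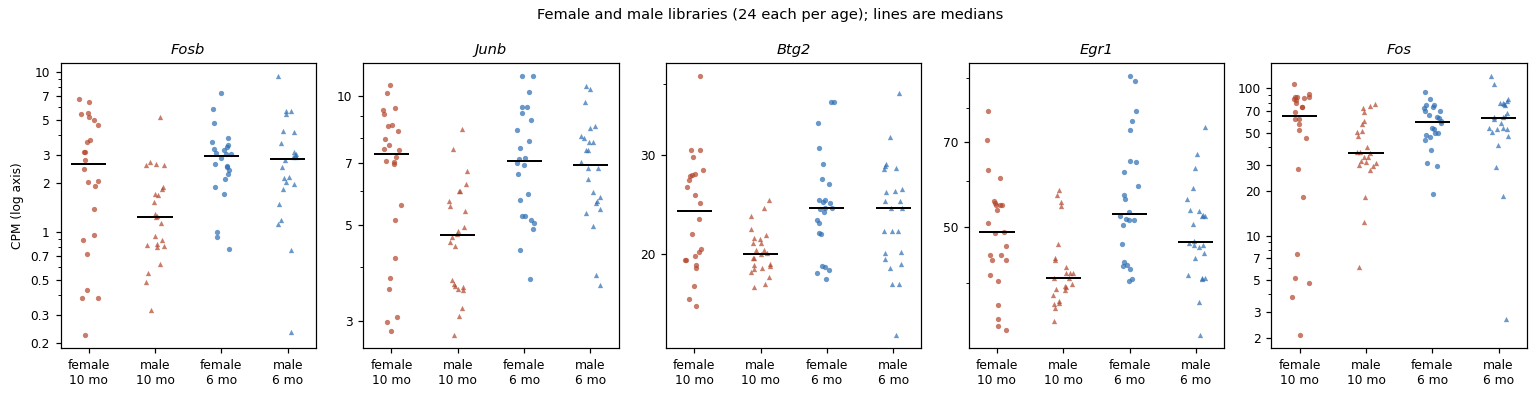
CPM of Fosb, Junb, Btg2, Egr1 and Fos in single libraries by age and sex, females left of males and 10 months left of 6 months, 24 libraries in each; short lines are medians. The male values of Btg2 at 10 months lie between 17.4 and 24.9 CPM, and the other sets overlap over wide ranges.

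Other genes and measures also differed between the sexes at 10 months. The background for the list counts here and in the next paragraph was 5.87% of all genes called in either direction and 3.46% called higher in females. A list with counts near these shares does not stand out from other genes. Among AP-1 partners 1 of 8 tested was called, Jun at 0.18 ± 0.05 (SE, adjusted p = 0.0171 in edgeR), and 8 of 8 were above 0. Among other rapid response genes 3 of 38 tested were called, all higher in females, Ccn1 at 0.77 ± 0.18, Zfp36 at 0.25 ± 0.07 and Gadd45b at 0.20 ± 0.06 (SE). Among delayed activity genes 2 of 25 were called, Sst at 1.23 ± 0.38 and Sorcs3 at 0.16 ± 0.05. Of 40 upstream kinases and factors 1 was called, Creb1, lower in females at -0.11 ± 0.03 (SE, adjusted p = 0.0404 in edgeR).

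The difference in log2 CPM between the clock genes Dbp and Arntl, which peak at opposite times of day, averaged 0.33 ± 0.50 in females and -0.17 ± 0.22 in males at 10 months (SD, n = 24 each), and 4 of 19 clock genes were called, all higher in females. At 6 months this difference was 0.80 ± 0.36 in females and 0.12 ± 0.43 in males. The mean of the 12 choroid plexus genes was 3.07 in females, between 0.02 and 5.44, and 1.95 in males, between -0.35 and 5.32, with 0 of 12 called. The markers Folr1, Aqp1 and Sostdc1 were listed at 0 in at least 1 library. Of 12 endothelial markers 3 were called higher in females, Emcn at 0.22 ± 0.07, Vwf at 0.21 ± 0.06 and Slco1a4 at 0.15 ± 0.05, and 1 lower, Flt1 at -0.10 ± 0.02 (SE). Of 10 markers of astrocytes and Bergmann glia 2 were called higher, Gdf10 at 0.21 ± 0.06 and Hopx at 0.18 ± 0.06 (SE). In the granule neuron list 1 of 10 was called, Gabra6, lower in females at -0.16 ± 0.05 (SE, adjusted p = 0.0474 in edgeR). The part of these measures in the sex difference was not tested.

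At 10 months 6 of 10 members had lower levels than at 6 months, in a comparison of 48 libraries with 48. The library names of the ages carry separate ranges of numbers, so age and a batch of libraries cannot be told apart. Ier2, Egr1, Junb, Fosb, Nr4a1 and Btg2 were called lower, 0 were called higher, and the background was 41.1% of genes called in either direction and 20.9% called lower. The median log2 fold change of the members was -0.28 against 0 over all genes.

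Ier2 had 4.60, 10.3 and 15.4 CPM at 10 months, against 6.68, 11.9 and 22.3 CPM at 6 months. The ages overlapped, and 37 of 48 libraries at 10 months lay below the mean log2 CPM at 6 months. The log2 fold change was -0.27 ± 0.07 (SE, adjusted p = 0.00147 in edgeR). Egr1 had 33.2, 43.9 and 79.0 CPM at 10 months, against 32.6, 51.5 and 90.7 CPM at 6 months. The lowest values were alike and the medians differed, with 34 of 48 libraries below the mean log2 CPM at 6 months and a log2 fold change of -0.21 ± 0.06 (SE, adjusted p = 0.00202 in edgeR).

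Among the AP-1 subunits, Junb had 2.77, 5.56 and 10.6 CPM at 10 months, against 3.64, 7.01 and 11.1 CPM at 6 months. With 30 of 48 libraries below the mean log2 CPM at 6 months, its log2 fold change was -0.29 ± 0.10 (SE, adjusted p = 0.01 in edgeR). Fosb had 0.225, 1.70 and 6.71 CPM at 10 months, against 0.237, 2.91 and 9.39 CPM at 6 months. Its log2 fold change was -0.53 ± 0.20 (SE, adjusted p = 0.0257 in edgeR), with 31 of 48 libraries below that mean log2 CPM. Fos had 2.10, 48.7 and 108.0 CPM at 10 months, against 2.69, 61.3 and 121.5 CPM at 6 months. Its log2 fold change of -0.31 ± 0.18 (SE) was not called (adjusted p = 0.163 in edgeR).

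Nr4a1 had 8.18, 43.1 and 82.2 CPM at 10 months, against 13.4, 52.8 and 99.8 CPM at 6 months, with a log2 fold change of -0.33 ± 0.13 (SE, adjusted p = 0.0409 in edgeR). Btg2 had 16.2, 20.4 and 41.4 CPM at 10 months, against 14.3, 24.1 and 38.6 CPM at 6 months, with a log2 fold change of -0.14 ± 0.06 (SE, adjusted p = 0.044 in edgeR). The ages overlapped in both genes, with 31 and 34 of 48 libraries below the mean log2 CPM at 6 months. Dusp1, at -0.24 ± 0.10 (SE, adjusted p = 0.05001), and Npas4, at -0.30 ± 0.14 (SE, adjusted p = 0.0649), were just outside the threshold in edgeR. Arc had 14.2, 23.5 and 29.4 CPM at 10 months, against 17.4, 22.8 and 28.6 CPM at 6 months, and a log2 fold change of 0.02 ± 0.03 (SE, adjusted p = 0.728 in edgeR).

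Across the 6 genotype and cage groups, the mean CPM was lower at 10 months in 6 of 6 for Fos, Junb, Egr1, Nr4a1 and Ier2. It was lower in 5 of 6 for Fosb, Npas4, Btg2 and Dusp1, and in 1 of 6 for Arc. Split further by sex it was lower in 8 of 12 groups for Fos, 8 for Fosb, 9 for Junb and 11 for Egr1 and for Ier2. Mean Fos was 56.9 CPM at 10 months and 58.3 CPM at 6 months in females, and 41.7 CPM and 62.3 CPM in males, and mean Fosb 2.89 and 2.997 CPM in females and 1.52 and 3.07 CPM in males. Leaving out libraries moved the count. Without the 12 libraries that lay far out on the first principal component of their age, 11 of them at 6 months, 2 members were called in place of 6, Egr1 and Btg2. The log2 fold changes were then -0.16 for Ier2, -0.23 for Junb, -0.52 for Fosb and -0.30 for Nr4a1, with adjusted p-values in edgeR of 0.0998, 0.105, 0.0873 and 0.165. On FPKM, limma called 9 members lower, all but Arc.

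Related genes at 10 months against 6 months were called lower more often than higher in the lists of AP-1 partners and other rapid response genes, and higher more often than lower in the delayed and upstream lists. Over all 17142 tested genes 3588 were called lower, 20.9%, and 3450 higher. A list with counts near these shares does not stand out from other genes. Among AP-1 partners 4 of 8 tested were called lower and 0 higher, Jund at -0.18 ± 0.05 (SE, adjusted p = 0.00386 in edgeR), Jun at -0.10 ± 0.04, Fosl1 at -0.09 ± 0.04 and Jdp2 at -0.06 ± 0.03. Among other rapid response genes 13 of 39 were called lower and 1 higher, with a median of -0.09. Egr4, a paralog of Egr1, differed by -0.46 ± 0.11 and Klf2, a factor induced early in many cells, by -0.43 ± 0.11 (SE). Btg1, a paralog of Btg2, differed by -0.15 ± 0.03 and Ppp1r15a by -0.11 ± 0.03 (SE). Delayed activity genes had 1 of 25 lower, Nrn1 at -0.13, and 4 higher, among them Inhba at 0.40 and Pcsk1 at 0.27. The upstream list had 9 of 40 lower and 12 higher, with the coactivator gene Crtc2 at -0.18 and the factor gene Mef2c at 0.17.

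Cell type markers were called with age too, beside 41.1% of all genes called in either direction and 20.9% called lower. Of 10 microglia markers 9 were called higher at 10 months, of 12 endothelial markers 6 higher, of 12 oligodendrocyte markers 6 lower, and of 10 granule neuron markers 5 lower and 0 higher. The mean of the granule neuron list was between 8.01 and 9.29 at 10 months and between 8.81 and 9.34 at 6 months on the log2 CPM scale. Clock genes moved as well, 7 of 19 called lower and 3 higher, with Dbp at -0.32 ± 0.05 (SE, adjusted p = 1.82e-06 in edgeR). The part of these changes in the lower levels of the members was not tested.

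The L number in the library name takes values of 1 to 8 and, in 1 library, 32, and the labels do not say what it stands for. Tested as a factor beside genotype, cage and sex, it was called for 0 of 10 members at either age in edgeR, with a background of 0.165% of genes at 10 months and 6.15% at 6 months. At each age 1 member had p under 0.05. At 6 months this was Ier2, with an adjusted p of 0.0909 in edgeR and 0.035 in DESeq2, which called it.

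Among the genes downstream and upstream of the members, Q140 against Q20 at 10 months gave 2 delayed activity genes called higher, Plk2 at 0.26 ± 0.07 and Syt4 at 0.17 ± 0.04, and 1 lower, Nrn1 at -0.22 ± 0.06 (SE), out of 25 tested. Their adjusted p-values in edgeR were 0.0284, 0.0178 and 0.0438, and the background was 1.99% of all genes called. Plk2, Syt4 and Nrn1 were not called in Q140 against the 16 wild types at 10 months. Plk2 is an activity-induced kinase and Syt4 a synaptotagmin, and neither was among the 10 genes most like the members. Of AP-1 partners 0 of 8, of other rapid response genes 0 of 38 and of upstream kinases and factors 0 of 40 were called. At 6 months 0 of 8, 0 of 39, 0 of 40 and 0 of 25 delayed activity genes were called. In Q92 against Q20 these 4 lists had 0 called genes at either age.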

How the data were processed

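The authors deposited 2 tables over the same 96 libraries, estimated counts per gene and FPKM, as their values and column names show. Per the labels' protocols, RNA from flash frozen tissue was extracted with Qiagen miRNeasy and made into Illumina mRNA libraries, and CASAVA 1.8.2 appears in the submitters' processing notes. The aligner, quantifier, genome build and strand setting were not given in the sources used here. Estimated counts were rounded, scaled by TMM, filtered (minimum count 10, minimum total 15) and tested with edgeR 4.0.16 in quasi-likelihood fits of all 48 libraries of an age with group and sex, of 32 knock-in libraries for the slope, or of all 96 for age and interactions. SE is the log2 fold change over the root of F. P-values were adjusted by Benjamini-Hochberg over all tested genes and called under 0.05, and 95% intervals are 1.96 SE either way. Library totals of 29957797 to 39477325 leave counts of 8 or more for every member.

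DESeq2 1.42.0, limma 3.58.1 on log2(FPKM + 0.1) and log2(FPKM + 1), RLE scaling, no filter, the L number, a replicate block, fewer libraries and each library left out within an age were alternatives. Replicate numbers within sex did not pair the libraries. Correlations used log2 CPM with a prior count of 2 and 100000 shuffles within groups of 4. Names came from GENCODE M21, which gave 37607 of 39179 IDs a symbol. The members and gene lists were chosen with earlier results of these data known. Members are named throughout. Other genes are named where called in a list, by rank of adjusted p, or as the 10 most like the members' mean and the 1 most like each member. The sex-by-age interaction, the comparison of clock genes Dbp and Arntl and the subset with at least 16 CPM of Fos were added after seeing the data. The fits were tested on simulated data.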

Additional observations from a re-analysis of the deposited data

Results flagged for a closer look

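Each member was searched for a library set apart from the other 7 of its genotype and cage group, on the log2 CPM scale, in 120 sets of 8. Of these, 17 held such a library where chance would give about 6, and 16 of the 17 were low. Several were the same library. Q20 female 2 at 10 months stood below its group in Fos (1.95), Npas4 (1.36), Nr4a1 (3.70) and Dusp1 (4.17). Male 3 of the wild types from Q20 cages at 6 months did so in Fos (1.46), Npas4 (0.96) and Dusp1 (3.79), and female 2 of the wild types from Q20 cages at 10 months in Npas4 (1.42) and Dusp1 (3.64). Q20 male 1 at 6 months was low in Fos (4.21) and Nr4a1 (4.35), and Q50 female 2 at 6 months in Npas4 (1.73) and Nr4a1 (3.88). Npas4 was low in Q92 female 1 at 6 months (2.04) and in Q92 female 3 at 10 months (-0.20), a library that is also among the lowest in Fos. Arc was low in Q92 female 2 at 10 months (3.83), the library that also stood apart in its mitochondrial share. The 1 high value was Nr4a1 in male 2 of the wild types from Q50 cages at 6 months (6.64). No difference of an effect between ages or sexes passed its test for any member.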

How the results depend on the processing

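Of the values of single members, 1629 stayed on their side of the threshold under the alternatives, 10 gained and 21 lost a call. With 1 library left out, 6336 stayed, 6 gained and 58 lost a call. The sign changed in 119 and 180 of these, each time without a call in either setting. The sex difference at 10 months was the least stable result. Its 3 called members became 0 with the L number as a factor, 0 without the filter on low counts, and 0 with limma on log2(FPKM + 0.1) and 0 on log2(FPKM + 1), and the range with 1 library left out was 0 to 4. DESeq2 called 4. The 6 members called with age became 2 without the 12 far libraries, while the count over all genes fell to 3305 in place of 7038. The L number at 6 months called 0 members in edgeR and 1 in DESeq2. The slope at 6 months called 0, or 0 to 1 with 1 library left out. The cause was not tested in any of these. Replicate numbers did not pair the libraries, since in 20 of 20 sets some same-numbered pair had a correlation of 0.1 or less and 18 of 80 libraries correlated best with their own number. The replicate block gave 2 called members for sex at 10 months and 7 for age. Over all genes, Q140 against Q20 at 10 months gave 339 called genes, 756 without Q92 female 2 and 96 with the L number as a factor, and sex at 10 months 1000 and 331 with that factor, with 0 members called for Q140 in each. The spread of Fos between libraries of a group limits what 8 libraries can show, and the interval of its difference between Q140 and Q20 at 10 months ran from -0.69 to 1.36. Leaving out single libraries was run for comparisons within an age and not for age or interactions.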

Other observations

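Glucocorticoid-induced genes, whose mean went with Fosb, Npas4, Nr4a1 and Fos across libraries at 10 months, differed between groups at that age, between wild types of the 2 kinds of cage as well as between knock-in alleles. In wild types from Q50 cages against those from Q20 cages 4 of 17 were called lower and 0 higher, Zbtb16, a zinc finger factor gene, at -1.94 ± 0.25 (SE, adjusted p = 1.05e-05 in edgeR), Hif3a at -1.28 ± 0.22, Cdkn1a at -0.80 ± 0.14 and Mt2 at -0.46 ± 0.10 (SE). Of 17 tested, 3 were called lower and 0 higher in Q140 against Q20, Zbtb16 at -1.50 ± 0.25 (SE, adjusted p = 0.000338 in edgeR), and the metallothionein genes Mt1 at -0.42 ± 0.09 and Mt2 at -0.45 ± 0.10 (SE). In Q92 against Q20 at 10 months Zbtb16 was called lower at -1.07 ± 0.24 (SE, adjusted p = 0.0406 in edgeR). Against the 16 wild types at 10 months 0 of 17 were called in Q140 and 0 in Q92. At 6 months 0 of 17 were called in Q140 or Q92 against Q20. In females against males at 10 months 4 of 17 were called higher, among them Mt2 at 0.37 ± 0.06 and Mt1 at 0.20 ± 0.05 (SE), and 1 lower, Lcn2 at -1.21 ± 0.34 (SE). The background at 10 months was 0.2% of all genes called between the wild types, 1.99% in Q140 and 0.2% in Q92 against Q20, and 5.87% between the sexes.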
